A study of Mus musculus with 6 samples.

Results

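The genes described here are 35 genes of glycolysis and of the response to low oxygen, taken as the rows of the deposited expression table that carry 1 of 35 gene symbols, out of 37309 genes in the table. They comprise 3 glucose and lactate transporters, 14 glycolytic enzymes, 3 regulators of glycolytic flux, 3 subunits of the hypoxia-inducible factors (HIFs), 3 proteins of HIF degradation and 9 genes known to be induced by hypoxia. All 35 were found once in the table and all passed the filter on low values. Their levels were compared across 3 genotypes of Jag1, which encodes a ligand of the Notch receptors, in vascular smooth muscle from the descending aorta of e14.5 mouse embryos. RNA was sequenced in 2 libraries per genotype.

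The knockout libraries came from cells with Cre and 2 floxed Jag1 alleles (lox/lox Cre+), the heterozygous libraries from cells with Cre and 1 floxed allele (lox/+ Cre+), and the wildtype libraries from cells with 2 floxed alleles and no Cre (lox/lox Cre-). Cre therefore differed together with Jag1 in both comparisons with wildtype, and was shared by both groups in knockout against heterozygous. The labels name neither the promoter that drives Cre nor the deleted exons, and they do not say whether a library is 1 embryo or a pool. P-values thus measure the spread between these libraries, which may be technical.

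Glycolysis splits glucose into pyruvate in the cytosol, and lactate dehydrogenase and lactate export allow it to run without oxygen. When oxygen is present, prolyl hydroxylases of the EGLN family mark the HIF alpha subunits for destruction through the von Hippel-Lindau protein. When oxygen is low, HIF alpha pairs with ARNT, binds the letters ACGTG or GCGTG in DNA and raises transcription of glucose transporters, glycolytic enzymes and genes of vessel growth.

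Jag1 itself had 19.9 and 35.4 scaled read counts in the knockout libraries, 492 and 584 in heterozygous libraries, and 1965 and 1885 in wildtype libraries. Reads in genes ranged from 17323962 to 28123670 per library, and 1 read was worth 0.774 to 1.22 scaled counts. The 2 knockout libraries differed more from each other than those of the other groups, with a chi-square per gene over counting error of 23.5 in knockout, 3.75 in heterozygous and 5.07 in wildtype. Among the 35 genes the median gap between the 2 libraries of a genotype was 0.13 log2 units in knockout, 0.09 in heterozygous and 0.06 in wildtype. The Y-linked gene Ddx3y had 5.44 and 12.2 scaled counts in the knockout libraries, 973 and 999 in heterozygous libraries, and 1102 and 1207 in wildtype libraries. Xist, the RNA of the inactive X, had 5622 and 5785 in knockout, 3698 and 4351 in heterozygous, and 3329 and 3440 in wildtype. The heterozygous and wildtype libraries thus held both RNAs, as a mix of embryos of both sexes would. The knockout libraries held almost no Ddx3y. The mix of sexes and the knockout genotype cannot be told apart.

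The labelled cell type was checked against 10 smooth muscle markers, which summed to 159227 and 146129 scaled counts in the knockout libraries, 186661 and 183348 in heterozygous libraries, and 219450 and 203366 in wildtype libraries. All 10 were detected. Of these, 7 were lower in knockout against wildtype, 4 in heterozygous against wildtype and 3 in knockout against heterozygous. The shares of all tested genes that fell were 7.10%, 2.74% and 8.09% in the same order. The 19 macrophage and leukocyte markers in the table, none at 0 in all libraries, summed to 14158 and 13395 scaled counts in knockout, 70103 and 64987 in heterozygous, and 33679 and 33893 in wildtype. All 18 that were tested fell in knockout against wildtype and in knockout against heterozygous, and 16 of 18 rose in heterozygous against wildtype. The 15 endothelial markers summed to 2905 to 3370 scaled counts in knockout, 3668 to 3923 in heterozygous and 5065 to 5210 in wildtype, and 5 of the 15 were under 10 in every library. The defining markers Pecam1, Cdh5 and Tie1 were near 0, with at most 9.12 for Pecam1, 13.4 for Cdh5 and 2.40 for Tie1 in any library. Of the 8 endothelial markers tested, 3 fell (Flt1, Emcn and Vwf) and 1 rose (Kdr) in knockout against wildtype, with a median log2 change of 0.22, and 2 fell (Flt1 and Emcn) and 2 rose (Kdr and Eng) in heterozygous against wildtype, with a median of 0.30. The order of the sums was that of Flt1, which averaged 615 scaled counts in knockout, 1423 in heterozygous and 3408 in wildtype. The 10 chondrocyte markers summed to 4947 to 4987 in knockout, 3921 to 4159 in heterozygous and 4645 to 4713 in wildtype, a sum made up mostly of Col11a1. Of the 7 chondrocyte markers tested, 4 rose and 0 fell both in knockout against wildtype, with a median log2 change of 1.91, and in heterozygous against wildtype, with a median of 1.22 (0 lower by edgeR and DESeq2 in both, and 0 and 1 lower at an unadjusted p under 0.05). Comp, Col2a1 and Sox6 rose in both comparisons, Sox5 in the first and Acan in the second. In knockout against heterozygous 4 chondrocyte markers rose and 1 fell. Of all tested genes, 5.42% rose in knockout against wildtype, 5.33% in heterozygous against wildtype and 4.39% in knockout against heterozygous. Of 13 erythroid markers, 7 were at 0 in every library. The part of these cell type markers in the results that follow was not tested. In bulk libraries such as these, fewer cells of a type and less RNA per cell cannot be told apart.

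Lower levels prevailed among the 35 genes in the knockout, and the genes that passed were transporters, 1 flux regulator and genes of the HIF pathway. The 35 genes were chosen with earlier results of these data known, so their counts are not independent of that choice. In knockout against wildtype, 7 genes fell and 0 rose at an adjusted p under 0.05 in limma, against 7.10% of all 15781 tested genes that fell, 5.42% that rose and 12.5% that did either. At an unadjusted p under 0.05, 14 were lower and 1 higher, beside 3930 of the 15781 tested genes in either direction. By edgeR or by DESeq2, 0 were higher. Their median log2 change was -0.16, with 26 of 35 below 0, beside a median of -0.0025 over all tested genes, of which 7962 were below 0. The 2 knockout values lay wholly apart from the 2 wildtype values for 30 of 35 genes, beside 50.1% of all tested genes. Here and below, shares over all tested genes were not matched for level. Most of the 35 genes lay above the median wildtype level per length of all tested genes, so the shares are not fully alike. The fit shares 1 spread per gene over all genotypes, although the knockout libraries differed more from each other. Its standard errors may thus be too small for comparisons with knockout and too large for heterozygous against wildtype. In the fit of the 2 groups alone, all tested genes numbered 796 lower and 571 higher, beside 1121 and 856 in the main fit. The count of 7 lower genes became 5 in that fit and 4 with no mean trend in the variance. It was smaller without either wildtype library and larger without either knockout library. The counts over all tested genes moved in the same way. Such a fit leaves its group with a single library, assumed to vary like the others. Without a knockout library the estimate of the spread rests on the other genotypes, whose libraries differed less. The part of this in the larger counts was not tested.

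In heterozygous against wildtype, 4 genes fell and 0 rose, beside 2.74% and 5.33% of all tested genes (8.07% in either direction). Aldoc and Bnip3 were higher at an unadjusted p under 0.05, and 0 were higher by edgeR or DESeq2. In either direction, 8 of the 35 genes were under that unadjusted p, beside 2918 of the 15781 tested genes. The median log2 change was -0.04 over the 35 genes and 0.0046 over all tested genes, and the values of 26 of 35 genes lay apart, beside 54.8% of all tested genes. The count of 4 was 1 without any single heterozygous or wildtype library and 7 without either knockout library, which serve only to estimate the spread in this comparison, and then 1 gene was higher. In knockout against heterozygous, 7 genes fell and 2 rose, beside 8.09% and 4.39% of all tested genes (12.5% in either direction), with a median log2 change of -0.08 against 0.0033, and 24 of 35 lay apart, beside 50.4%. Fewer genes were lower without either heterozygous library and more without knockout replicate 2, in fits that leave a group with a single library. The 3 comparisons share libraries pairwise and are not independent.

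**Figure D1:**
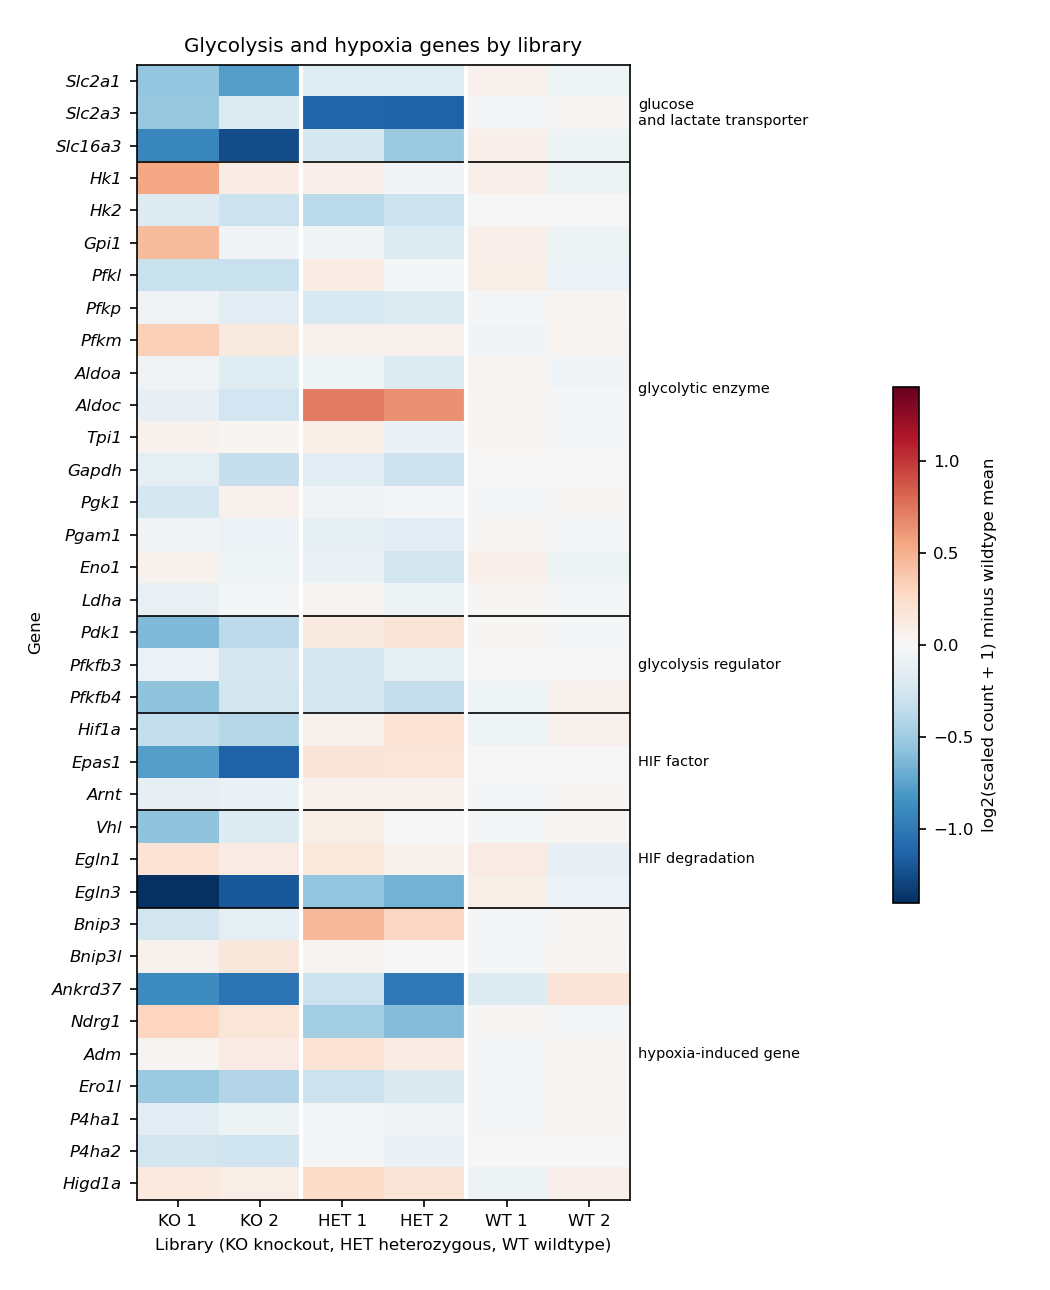
Each row is 1 of the 35 genes and each column 1 library, with the colour giving log2(scaled count + 1) minus the mean of the 2 wildtype libraries, and black lines divide the functional groups. The rows of Slc2a1, Slc16a3, Epas1 and Egln3 are blue in both knockout libraries, Slc2a3 and Ndrg1 are bluest in heterozygous libraries, and most glycolytic enzymes are pale in all 6.

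The order of the 3 genotypes differed between genes, as the colours of the plot by library show. The heterozygous mean lay between the other 2 means for 16 of the 35 genes, was the highest for 10 and the lowest for 9. The orders given here were counted for the 35 genes only. Their shares over all tested genes were not computed, so these counts do not set the 35 genes apart. For 11 genes the means were lowest in knockout, intermediate in heterozygous and highest in wildtype, and for 5 of these, Slc2a1, Slc16a3, Egln3, Ero1l and P4ha2, every knockout library was below every heterozygous library and every heterozygous library below every wildtype library. The summed smooth muscle markers had that order too. For 8 genes the heterozygous mean was highest and the knockout mean lowest, which was also the order of the summed macrophage and leukocyte markers, and for 6 of them (Aldoc, Pdk1, Bnip3, Hif1a, Epas1 and Arnt) it held in every library. For Aldoc and Hif1a it rested on near ties. Aldoc had 24.5 scaled counts (27 reads) in knockout replicate 1 and 26.1 (25 reads) in wildtype replicate 2. Hif1a had 6857 in heterozygous replicate 1 and 6856 in wildtype replicate 2.

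Glucose enters cells through facilitative transporters, and lactate leaves through monocarboxylate transporters. Slc2a1, which encodes the glucose transporter GLUT1, had 1873 and 1595 scaled counts in the knockout libraries, 2433 and 2417 in heterozygous libraries, and 2842 and 2618 in wildtype libraries. Both knockout libraries were the lowest and both wildtype libraries the highest, with no overlap. Slc2a1 fell by 0.66 ± 0.10 in knockout against wildtype on the log2 scale (SE, adjusted p = 0.00258, range over 16 alternatives 5.43e-08 to 0.054, the highest without wildtype replicate 1). It also fell by 0.49 ± 0.10 in knockout against heterozygous (adjusted p = 0.0127, range 2.85e-06 to 0.138), where 0.138 came without heterozygous replicate 1, 0.122 without heterozygous replicate 2 and 0.0733 with no mean trend. The difference of -0.17 in heterozygous against wildtype did not pass (adjusted p = 0.465, 95% interval -0.40 to 0.06).

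Slc16a3, which encodes the lactate exporter MCT4, showed the same order with a larger difference. It had 514 and 408 scaled counts in the knockout libraries, 817 and 676 in heterozygous libraries, and 1016 and 921 in wildtype libraries, with the 3 genotypes in separate ranges. It fell by 1.08 ± 0.14 in knockout against wildtype (adjusted p = 0.00106), and the call held under all 16 alternatives, whose adjusted p reached 0.0237. It fell by 0.70 ± 0.14 in knockout against heterozygous (adjusted p = 0.0113, range 1.03e-06 to 0.163), which missed the threshold without heterozygous replicate 1 (0.163) and with no mean trend (0.0651). The difference of -0.38 ± 0.14 in heterozygous against wildtype did not pass (adjusted p = 0.177). Over 16 alternatives it ran from -0.52 to -0.24 and passed under 4. Among these were the fits without either knockout library and the fit of the 2 groups alone. Slc16a1, the gene of the related transporter MCT1, averaged 605 scaled counts in knockout, 481 in heterozygous and 494 in wildtype, and passed in none of the 3 comparisons.

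Slc2a3, which encodes the high-affinity glucose transporter GLUT3, had another pattern. Its values were 176 and 224 scaled counts in the knockout libraries, 117 and 115 in heterozygous libraries, and 252 and 257 in wildtype libraries. The 2 heterozygous libraries were the lowest and differed little from each other. Slc2a3 fell by 1.13 ± 0.15 in heterozygous against wildtype (adjusted p = 0.00216, at most 0.0461 over the 16 alternatives). It rose by 0.77 ± 0.15 in knockout against heterozygous (adjusted p = 0.0103, range 3.26e-05 to 0.0978), a call lost without heterozygous replicate 1 (0.0978) or 2 (0.0972). The difference of -0.36 ± 0.15 in knockout against wildtype did not pass (adjusted p = 0.186). It was -0.53 without knockout replicate 2, which leaves a single knockout library. Per kilobase of gene length, Slc2a1 averaged 505 scaled counts in knockout, 706 in heterozygous and 794 in wildtype, whereas Slc2a3 averaged 18.5 in knockout, 10.8 in heterozygous and 23.6 in wildtype. Slc2a1 thus made up 96.4% of the summed level of this pair in knockout, 98.5% in heterozygous and 97.1% in wildtype.

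Slc2a1, Slc16a3 and Ero1l are among the 5 genes whose levels were lowest in knockout and intermediate in heterozygous in every library. Their promoters are printed beside those of Pgk1 and Ldha, 2 enzymes that are textbook HIF targets and passed in none of the comparisons. Each is the 250 bases before the most upstream gene start listed by RefSeq on GRCm38.p6, 5′ to 3′ on the gene's strand. Other listed starts were not used. Capitals mark ACGTG or GCGTG on either strand, which read CACGT or CACGC where the motif lies on the other strand. The build of the deposited data is mm9, so these positions serve only to locate the sequences. The positions are chr4:119108495-119108744 (+) for Slc2a1, chr11:120948817-120949066 (+) for Slc16a3, chr14:45318573-45318822 (-) for Ero1l, chrX:106186850-106187099 (+) for Pgk1 and chr7:46845554-46845803 (+) for Ldha. The bases just after the listed start were found in a GENCODE transcript of the gene for 4 of these and not for Ldha.
Slc2a1: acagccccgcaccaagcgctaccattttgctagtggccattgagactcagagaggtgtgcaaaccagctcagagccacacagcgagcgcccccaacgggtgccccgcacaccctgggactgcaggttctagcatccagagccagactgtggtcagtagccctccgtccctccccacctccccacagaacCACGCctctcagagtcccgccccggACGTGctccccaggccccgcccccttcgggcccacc
Slc16a3: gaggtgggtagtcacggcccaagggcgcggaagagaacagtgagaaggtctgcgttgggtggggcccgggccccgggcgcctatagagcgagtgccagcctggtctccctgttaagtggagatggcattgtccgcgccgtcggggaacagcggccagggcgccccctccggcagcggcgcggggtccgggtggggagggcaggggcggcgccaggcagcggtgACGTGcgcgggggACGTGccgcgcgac
Ero1l: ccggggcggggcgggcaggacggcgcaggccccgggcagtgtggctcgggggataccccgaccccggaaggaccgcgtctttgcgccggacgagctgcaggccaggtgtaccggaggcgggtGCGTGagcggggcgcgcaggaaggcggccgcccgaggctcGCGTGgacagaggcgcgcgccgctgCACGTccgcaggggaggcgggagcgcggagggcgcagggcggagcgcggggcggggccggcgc
Pgk1: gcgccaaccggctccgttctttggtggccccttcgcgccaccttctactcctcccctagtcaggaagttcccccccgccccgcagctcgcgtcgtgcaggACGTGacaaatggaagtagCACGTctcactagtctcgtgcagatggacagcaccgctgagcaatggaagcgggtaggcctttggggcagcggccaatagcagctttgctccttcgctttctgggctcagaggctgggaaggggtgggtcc
Ldha: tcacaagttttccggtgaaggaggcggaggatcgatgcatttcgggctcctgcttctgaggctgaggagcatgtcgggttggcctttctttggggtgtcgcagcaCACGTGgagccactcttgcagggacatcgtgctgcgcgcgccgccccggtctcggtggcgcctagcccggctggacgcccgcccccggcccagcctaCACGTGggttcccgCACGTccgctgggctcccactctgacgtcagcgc
Slc2a1 and Slc16a3 each held 2 motifs, Ero1l 3, Pgk1 2 and Ldha 5, where CACGTG counts once on each strand. Egln3 and P4ha2, which shared the order of Slc2a1 and are not printed, held 1 and 3. The bases just after the listed start of Egln3 were not found in a GENCODE transcript of the gene. Of the 31 members with a listed promoter, 26 held at least 1 motif, beside 38.6% of 27025 promoters of the same length. Those promoters include genes not expressed here and were not matched for base content, while both motifs contain CG. The 2 shares are therefore not alike and show no enrichment. The bases just after the listed start were found in a GENCODE transcript of the gene for 25 of the 31. All 6 members that fell in knockout against wildtype and have a listed promoter held a motif, as did 20 of the 25 that did not pass. The letters were thus present both in genes that fell and in genes that did not pass, and a match of letters is a description and not a bound site.

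Of the 14 glycolytic enzymes, 1 passed in 1 of the 3 comparisons. In knockout against wildtype 0 rose and 0 fell by limma, edgeR or DESeq2, with 1 higher and 2 lower at an unadjusted p under 0.05, and their log2 differences ran from -0.32 (Pfkl) to 0.32 (Hk1). The 95% intervals of the 14 differences reached from -0.76 to 0.63. In knockout against heterozygous 0 passed in either direction by limma, edgeR or DESeq2, with 1 higher and 2 lower at an unadjusted p under 0.05. Of all 15781 tested genes, 3930 were under that unadjusted p in knockout against wildtype and 4006 in knockout against heterozygous, in either direction. Hk2 fell in heterozygous against wildtype and the other 13 did not pass. Aldoc gave the widest differences, 0.68 in heterozygous against wildtype (95% interval 0.11 to 1.26) and -0.87 in knockout against heterozygous (95% interval -1.45 to -0.30). Neither passed, though the first did under 1 and the second under 3 of 16 alternatives. Their summed scaled counts were 69544 and 65185 in the knockout libraries, 66104 and 61409 in heterozygous libraries, and 70111 and 67012 in wildtype libraries, so the mean sum was 98.3% of wildtype in knockout and 93.0% in heterozygous, and the knockout range overlapped both others, while both heterozygous sums lay below both wildtype sums.

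Several of these enzymes were among the most abundant genes in the tissue. Per kilobase of gene length, Aldoa (aldolase A) averaged 3001 ± 183 scaled counts in knockout, 2960.1 ± 194 in heterozygous and 3235 ± 110.4 in wildtype (SD, n = 2), and its wildtype level exceeded that of 98.5% of all tested genes. In wildtype it was followed by Pgam1 (phosphoglycerate mutase) at 3002 ± 34.7, Ldha at 2306 ± 28.6, Tpi1 (triosephosphate isomerase) at 2000.3 ± 55.3, Eno1 (enolase) at 1661 ± 109 and Pgk1 at 1528 ± 29.2. Each of these 6 differed from the next by more than the SD of either, though each SD rests on 2 libraries. Gapdh, which catalyses the step between aldolase and Pgk1, had only 117.7 ± 11.1 in knockout, 117.7 ± 7.43 in heterozygous and 137 ± 1.14 in wildtype, rank 23 of the 35. Aldoc was the lowest of all, at 4.41 ± 0.33 in knockout, 8.23 ± 0.35 in heterozygous and 5.05 ± 0.13 in wildtype. The lengths are those of the authors' gene models.

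Reads of these enzymes are uncertain where near-identical copies exist in the genome. The table lists Pgk1-rs7 with 1650 to 1832 scaled counts over the 6 libraries, Pgam1-ps2 with 1513 to 2074, Pgam1-ps1 with 305 to 666, Ldha-ps2 with 376 to 643 and Aldoart1 with 179 to 265, and how reads that match several copies were counted is not given in the sources used here. Gapdh also has many processed copies in the mouse genome, and its level is uncertain for the same reason.

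Pgk1, phosphoglycerate kinase, had 3654 and 4546 scaled counts in the knockout libraries, 4199 and 4274 in heterozygous libraries, and 4292 and 4409.8 in wildtype libraries. The 2 knockout libraries spanned the values of all 4 others, and the difference in knockout against wildtype was -0.09 ± 0.11 (adjusted p = 0.65, 95% interval -0.34 to 0.15). Without knockout replicate 2 it was -0.25 and without knockout replicate 1 it was 0.06, so its sign rested on 1 library. Pgk1 lies on the X chromosome, and Xist, the RNA of the inactive X, had 5622 and 5785 scaled counts in knockout, 3698 and 4351 in heterozygous, and 3329 and 3440 in wildtype. Ldha, the subunit of lactate dehydrogenase that prevails in glycolytic tissue, had 10007 and 10627 in knockout, 10998 and 10219.9 in heterozygous, and 10841 and 10653 in wildtype, with overlapping genotypes except that both knockout values lay below both wildtype values. Its difference in knockout against wildtype was -0.06 ± 0.08 (adjusted p = 0.72, 95% interval -0.25 to 0.13). Gapdh had 341 and 298 scaled counts in knockout, 334 and 305 in heterozygous, and 375 and 371 in wildtype, a difference of -0.23 ± 0.12 in knockout against wildtype that did not pass (adjusted p = 0.303, 95% interval -0.51 to 0.05).

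Hexokinases catalyse the first step of glycolysis. Hk2, the inducible hexokinase, had 2542 and 2338 scaled counts in the knockout libraries, 2219 and 2345 in heterozygous libraries, and 2865 and 2902 in wildtype libraries. Both wildtype libraries were the highest, and the other 2 genotypes overlapped. Hk2 fell by 0.34 ± 0.09 in heterozygous against wildtype (adjusted p = 0.0494, range 0.000327 to 0.4), a call lost without any 1 of the heterozygous or wildtype libraries (0.233 to 0.4), with no filter (0.0628) and with no mean trend (0.15). Hk1 averaged 3050.3 ± 643 scaled counts in knockout, 2450.4 ± 129 in heterozygous and 2420 ± 173 in wildtype (SD, n = 2), and its difference of 0.32 in knockout against wildtype (adjusted p = 0.184) passed without knockout replicate 2 alone (0.54, adjusted p = 1.7e-05, range 1.7e-05 to 0.631). Hk3, a hexokinase best known from leukocytes that is not 1 of the 35, fell by 1.70 ± 0.15 in knockout against wildtype (adjusted p = 0.000134) and rose by 1.01 ± 0.15 in heterozygous against wildtype (adjusted p = 0.00345, range 1.14e-09 to 0.0739). That call was lost without any 1 of the heterozygous or wildtype libraries. Per length it made up 2.63% of the 3 hexokinases in knockout, 16.8% in heterozygous and 7.93% in wildtype, beside a macrophage marker sum at 40.8% of wildtype in knockout and 199.9% in heterozygous; its part in the Hk3 result was not tested.

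Gpi1, glucose-6-phosphate isomerase, had 7273 and 5237 scaled counts in knockout, 5165 and 4683 in heterozygous, and 5614 and 5124 in wildtype, so knockout replicate 1 stood above the other 5 libraries. Its difference in knockout against wildtype was 0.20 (adjusted p = 0.438). It was 0.44 without knockout replicate 2 against -0.03 without knockout replicate 1, each with a single knockout library left. Among the phosphofructokinases, which catalyse the committed step, the liver-type Pfkl averaged 894 ± 0.62 in knockout, 1150 ± 68.3 in heterozygous and 1116 ± 95.1 in wildtype (SD, n = 2). Its difference of -0.36 ± 0.10 in knockout against heterozygous was just short of the threshold (adjusted p = 0.0508). Over 16 alternatives it ran from -0.42 to -0.30 and passed under 4. Among these were the fits without knockout replicate 1 or 2, which leave a single knockout library. The muscle-type Pfkm averaged 539 ± 56.1 in knockout, 478 ± 1.17 in heterozygous and 459 ± 19.3 in wildtype. Per length, Pfkl was 38.1% and 40.9% of the 3 isoforms in the knockout libraries, 49.2% and 47.0% in heterozygous libraries, and 48.5% and 44.4% in wildtype libraries, while Pfkm was 38.3% and 35.5% in knockout, 30.5% and 31.6% in heterozygous, and 28.3% and 31.0% in wildtype. The shares of Pfkl and Pfkm in knockout thus lay apart from those in both other genotypes, but 2 against 2 libraries cannot go below p = 0.333 in an exact permutation test. The other aldolase, Aldoc, had 24.5 and 22.0 scaled counts in knockout, 44.7 and 42.1 in heterozygous, and 27.1 and 26.1 in wildtype. Its difference of -0.87 ± 0.25 in knockout against heterozygous did not pass (adjusted p = 0.055), though it did under 3 of 16 alternatives. Pfkp, the platelet-type isoform, made up 23.6% in knockout, 20.8% in heterozygous and 23.9% in wildtype.

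**Figure D2:**
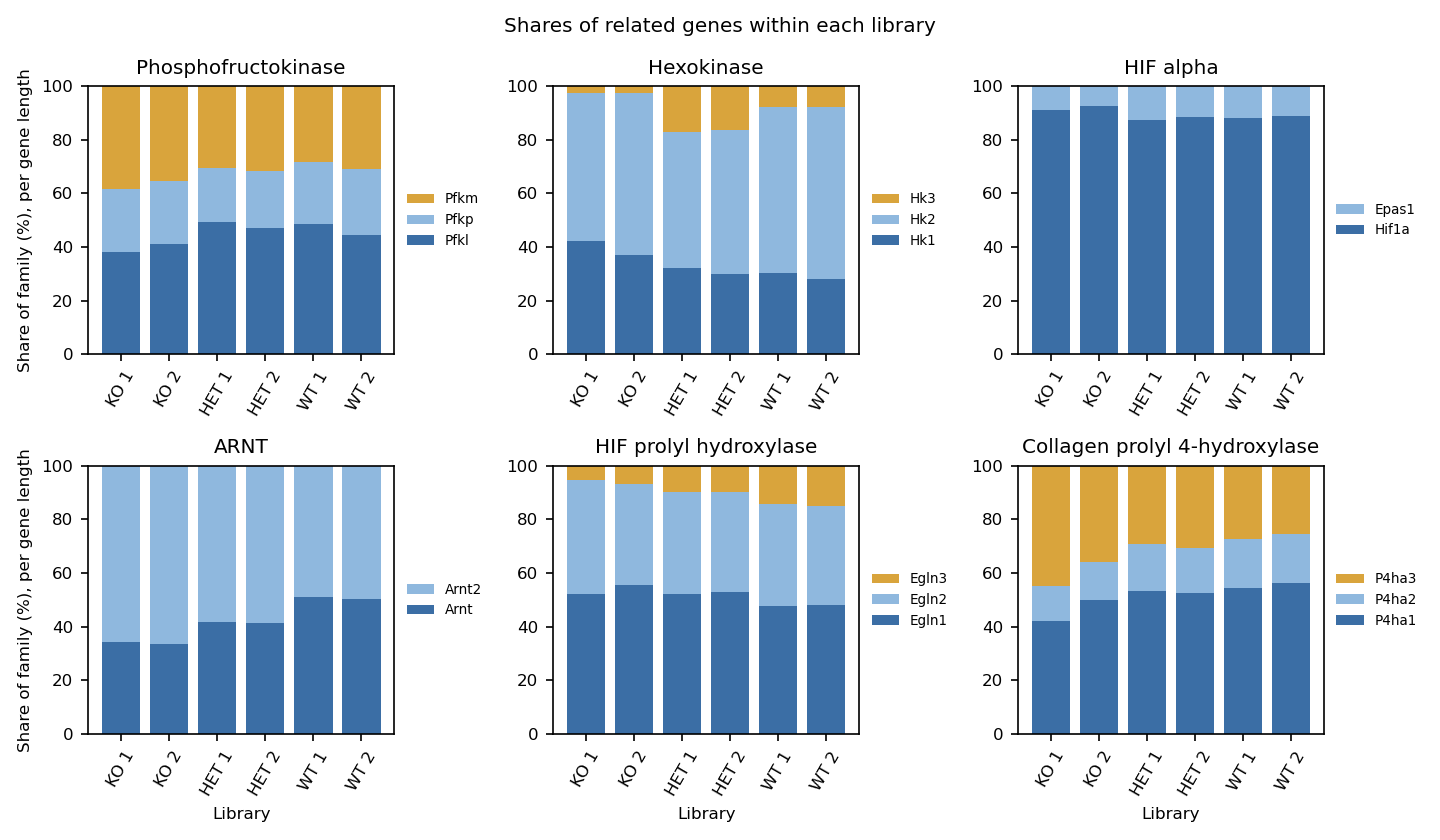
Each stacked bar is 1 library and shows, for 6 families of related genes, the percent of the family's summed scaled counts per gene length that each gene holds (Hk3, Arnt2, Egln2 and P4ha3 are not among the 35). Pfkm, Hk1, Arnt2 and P4ha3 take larger shares in both knockout libraries than in wildtype libraries, and Egln3 smaller ones.

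Regulators set how much carbon passes through the pathway. Pdk1, the kinase that shuts pyruvate dehydrogenase and so keeps pyruvate from the mitochondrion, had 226 and 269 scaled counts in the knockout libraries, 376 and 391 in heterozygous libraries, and 351 and 341 in wildtype libraries. The 2 knockout libraries were the lowest and the heterozygous libraries the highest. Pdk1 fell by 0.64 ± 0.13 in knockout against heterozygous (adjusted p = 0.0104, range 2.15e-05 to 0.121), a call lost without heterozygous replicate 1 (0.098) or 2 (0.121). It fell by 0.49 ± 0.13 in knockout against wildtype (adjusted p = 0.0363, range 0.000319 to 0.24), lost without any 1 of the heterozygous or wildtype libraries (0.0967 to 0.24), in the fit of the 2 groups alone (0.0999), with no mean trend (0.0721) and by DESeq2 (0.0693). Pfkfb3 and Pfkfb4 make and remove fructose 2,6-bisphosphate, the activator of phosphofructokinase. Pfkfb3 averaged 624 ± 46.4 in knockout, 613 ± 27.9 in heterozygous and 697 ± 4.2 in wildtype, and Pfkfb4 208 ± 31.1 in knockout, 225 ± 10.6 in heterozygous and 276 ± 15.3 in wildtype (SD, n = 2). Neither passed in any comparison, although both were lower in each knockout library than in either wildtype library. The Pfkfb4 difference in knockout against wildtype was -0.41 (adjusted p = 0.108). It was -0.56 without knockout replicate 2, which leaves a single knockout library.

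Both HIF alpha subunits were lower in the knockout. Hif1a, the broadly expressed alpha subunit, had 5225 and 4992 scaled counts in the knockout libraries, 6857 and 7533 in heterozygous libraries, and 6316 and 6856 in wildtype libraries. The knockout libraries were the lowest, and the heterozygous and wildtype libraries almost met. Hif1a fell by 0.49 ± 0.09 in knockout against heterozygous (adjusted p = 0.00605, range 1.81e-05 to 0.111), lost without heterozygous replicate 2 (0.111) and with no mean trend (0.0513). It fell by 0.37 ± 0.09 in knockout against wildtype (adjusted p = 0.0266, range 0.000614 to 0.284), lost without any 1 of the heterozygous or wildtype libraries (0.0698 to 0.284), in the fit of the 2 groups alone (0.0705) and with no mean trend (0.112).

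Epas1, which encodes HIF2 alpha, the subunit best known from endothelial cells, had 388 and 302 scaled counts in the knockout libraries, 752 and 747 in heterozygous libraries, and 663 and 665 in wildtype libraries. Both knockout libraries stood far below the other 4. Epas1 fell by 0.95 ± 0.13 in knockout against wildtype (adjusted p = 0.00126) and fell by 1.13 ± 0.13 in knockout against heterozygous (adjusted p = 0.000387), and both calls held under all 16 alternatives, with adjusted p of at most 0.0237 and 0.0138. Its difference was 0.17 ± 0.13 in heterozygous against wildtype (adjusted p = 0.595). Per length, Epas1 was 8.86% and 7.34% of the 2 alpha subunits in the knockout libraries, 12.6% and 11.5% in heterozygous libraries, and 12.1% and 11.3% in wildtype libraries. The endothelial marker sum was 61.1% of wildtype in knockout and 73.9% in heterozygous, although 5 of the 8 endothelial markers tested had a log2 change above 0 in each of these comparisons, and the macrophage marker sum followed the order of Hif1a and Epas1; their part was not tested.

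Arnt, the constitutive partner of the alpha subunits, had 1195 and 1216 scaled counts in the knockout libraries, 1356 and 1347 in heterozygous libraries, and 1284 and 1309.7 in wildtype libraries. The ranges did not overlap but the difference in knockout against wildtype was small, -0.11 ± 0.09 (adjusted p = 0.516, 95% interval -0.30 to 0.09). Its paralogue Arnt2, which is not 1 of the 35, rose by 0.91 ± 0.10 in knockout against wildtype (adjusted p = 0.000317, at most 0.0111 over the alternatives), averaging 1081 ± 40.5 in knockout, 868 ± 0.32 in heterozygous and 577 ± 19.7 in wildtype (SD, n = 2). Per length, Arnt thus held 33.8% of the pair in knockout, 41.6% in heterozygous and 50.7% in wildtype.

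The gene of an oxygen sensor showed the largest difference of the 35 in knockout against wildtype. Egln3, a prolyl hydroxylase that marks HIF alpha for destruction and is itself induced by HIF, had 111 and 128 scaled counts in the knockout libraries, 202 and 185 in heterozygous libraries, and 311 and 278 in wildtype libraries. The 3 genotypes were in separate ranges, and Egln3 was the only member to pass in all 3 comparisons. It fell by 1.30 ± 0.15 in knockout against wildtype (adjusted p = 0.000446, at most 0.0139 over the 16 alternatives). It fell by 0.69 ± 0.15 in knockout against heterozygous (adjusted p = 0.0132, range 0.000128 to 0.154), lost without heterozygous replicate 1 (0.154) or 2 (0.0848). It fell by 0.60 ± 0.15 in heterozygous against wildtype (adjusted p = 0.0359, range 0.000252 to 0.336), lost without any 1 of the heterozygous or wildtype libraries (0.164 to 0.336), with no filter (0.054), with no mean trend (0.0646) and by DESeq2 (0.0558).

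The main hydroxylase Egln1 averaged 1409 ± 57.6 scaled counts in knockout, 1359 ± 62.1 in heterozygous and 1272 ± 148 in wildtype (SD, n = 2), with overlapping libraries and no call. Egln3 therefore made up 6.07% of the 3 hydroxylases per length in knockout, 9.85% in heterozygous and 14.7% in wildtype, while Egln2 held 40.0% in knockout, 37.7% in heterozygous and 37.5% in wildtype. Vhl, the substrate receptor of the ubiquitin ligase that removes HIF alpha, had 349.9 and 457 scaled counts in the knockout libraries, 550.1 and 519 in heterozygous libraries, and 510.1 and 528 in wildtype libraries. Both knockout libraries were the lowest, but they differed from each other, and the difference of -0.38 ± 0.14 in knockout against wildtype did not pass (adjusted p = 0.124, range 0.00022 to 0.467, the lowest without knockout replicate 2).

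**Figure D3:**
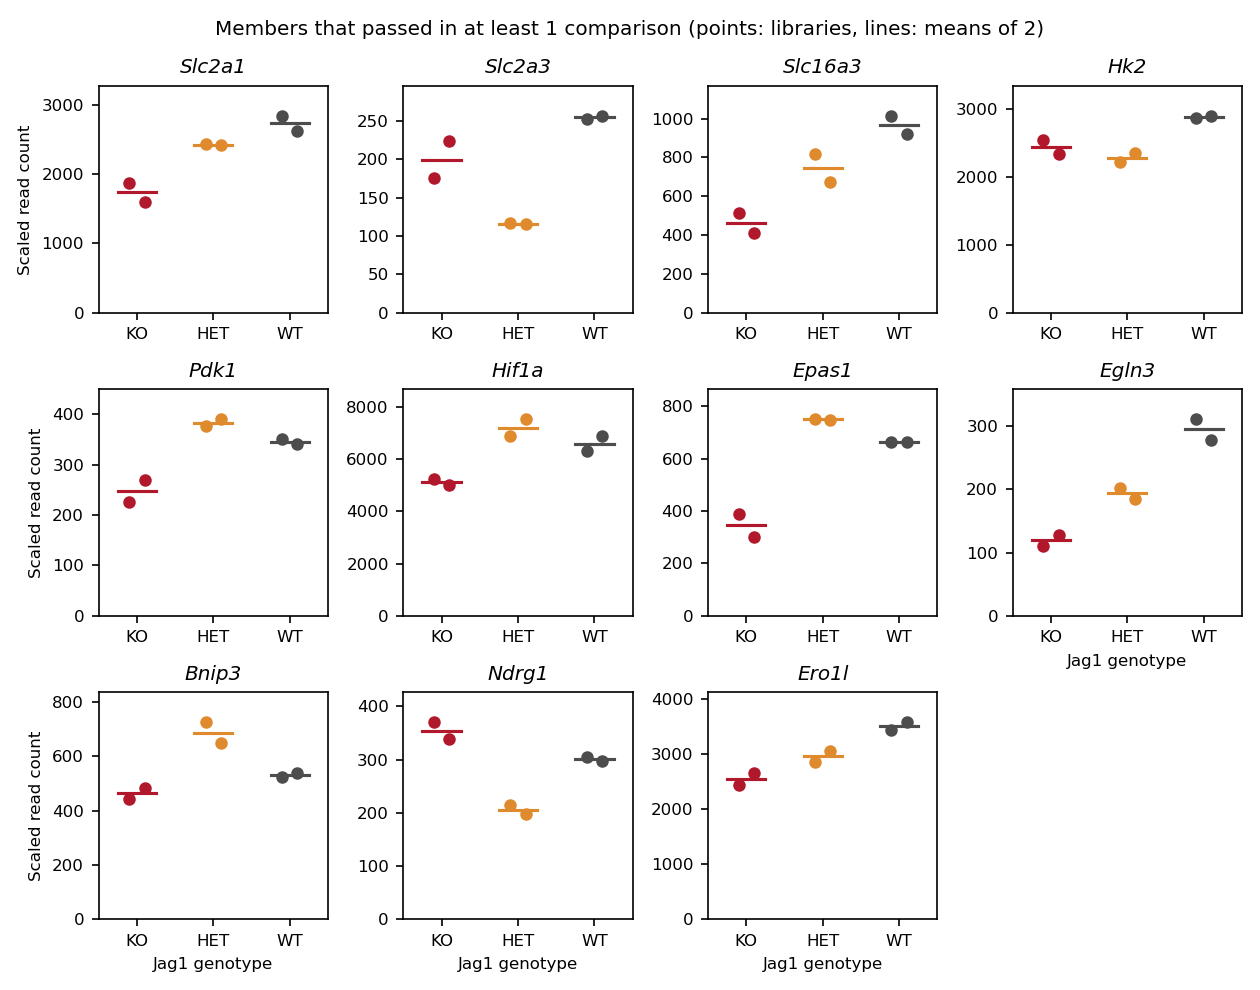
Scaled read counts in each library (points) with the mean of 2 (lines) for the 11 genes that passed in at least 1 comparison, by Jag1 genotype, each on its own axis from 0. Slc2a1, Slc16a3, Egln3 and Ero1l step up across the 3 genotypes, Epas1, Hif1a, Pdk1 and Bnip3 are highest in heterozygous libraries, and Slc2a3 and Ndrg1 are lowest there.

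Of the 9 genes known to be induced by hypoxia, 1 fell in knockout against wildtype, 1 fell in heterozygous against wildtype, and 1 fell and 1 rose in knockout against heterozygous. A count of 1 of 9 is not a result about these genes as a group, beside the 7.10%, 2.74% and 8.09% of all tested genes that fell in the same comparisons and the 4.39% that rose in the last. Ero1l, the oxidase that drives disulfide formation in the endoplasmic reticulum, had 2444 and 2649 scaled counts in the knockout libraries, 2857 and 3064 in heterozygous libraries, and 3448 and 3585 in wildtype libraries, in 3 separate ranges. It fell by 0.47 ± 0.09 in knockout against wildtype (adjusted p = 0.00786, range 1.11e-05 to 0.116), lost without wildtype replicate 1 (0.0774) or 2 (0.116) and with no mean trend (0.0532). Bnip3, which triggers the removal of mitochondria, had 442 and 484 in the knockout libraries, 726 and 648 in heterozygous libraries, and 523 and 538 in wildtype libraries. The heterozygous libraries were the highest, and Bnip3 fell by 0.57 ± 0.11 in knockout against heterozygous (adjusted p = 0.00916, range 4.69e-05 to 0.148), lost without heterozygous replicate 1 (0.148) or 2 (0.0531). Its difference of 0.37 ± 0.11 in heterozygous against wildtype did not pass (adjusted p = 0.0861). It passed under 3 of 16 alternatives, among them the fits without either knockout library. The related Bnip3l averaged 2091 ± 92.8 in knockout, 1969 ± 31.9 in heterozygous and 1937 ± 59.9 in wildtype (SD, n = 2) and did not pass.

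Ndrg1, a stress-responsive gene, was lowest in the heterozygous libraries, as Slc2a3 was. It had 371 and 339 scaled counts in the knockout libraries, 214 and 197 in heterozygous libraries, and 304 and 297 in wildtype libraries, in separate ranges. It rose by 0.78 ± 0.12 in knockout against heterozygous (adjusted p = 0.00277, range 1.4e-05 to 0.0529, the highest without heterozygous replicate 2). It fell by 0.55 ± 0.12 in heterozygous against wildtype (adjusted p = 0.0267, range 0.000442 to 0.255), lost without any 1 of the heterozygous or wildtype libraries (0.146 to 0.255), with no mean trend (0.0523) and by DESeq2 (0.0533). Its difference of 0.24 ± 0.12 in knockout against wildtype did not pass (adjusted p = 0.284).

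The other hypoxia-induced genes did not pass. Ankrd37 had few reads, averaging 28.4 ± 2.14 scaled counts in knockout, 36.6 ± 12.7 in heterozygous and 56.7 ± 10.1 in wildtype (SD, n = 2). Its difference of -0.96 ± 0.29 in knockout against wildtype was just short of the threshold (adjusted p = 0.0661). Over 16 alternatives it ran from -1.14 to -0.78. It passed only without knockout replicate 1 or 2, in fits that leave a single knockout library. Adm, which encodes the vasodilator peptide adrenomedullin, averaged 617 ± 22.1 in knockout, 651 ± 29.3 in heterozygous and 586 ± 16.6 in wildtype. Higd1a, a mitochondrial protein gene, averaged 358 ± 6.63 in knockout, 386 ± 13.2 in heterozygous and 331 ± 23.9 in wildtype. P4ha1 and P4ha2 encode catalytic subunits of collagen prolyl 4-hydroxylase, which stabilises collagen. P4ha2 averaged 1550 ± 19.3 in knockout, 1786 ± 54.9 in heterozygous and 1862 ± 12 in wildtype. Its difference of -0.26 ± 0.09 in knockout against wildtype did not pass (adjusted p = 0.0827). It passed only without knockout replicate 1 or 2, in fits that leave a single knockout library. P4ha1 averaged 3900.2 ± 137 in knockout, 4116 ± 73.9 in heterozygous and 4212 ± 97.3 in wildtype. The third subunit gene, P4ha3, which is not 1 of the 35, rose by 0.77 ± 0.15 in knockout against wildtype (adjusted p = 0.00794, range 4.43e-10 to 0.0938), lost without wildtype replicate 1 or 2 and with no mean trend. Per length it held 40.3% of the 3 subunits in knockout, 29.7% in heterozygous and 26.3% in wildtype.

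**Figure D4:**
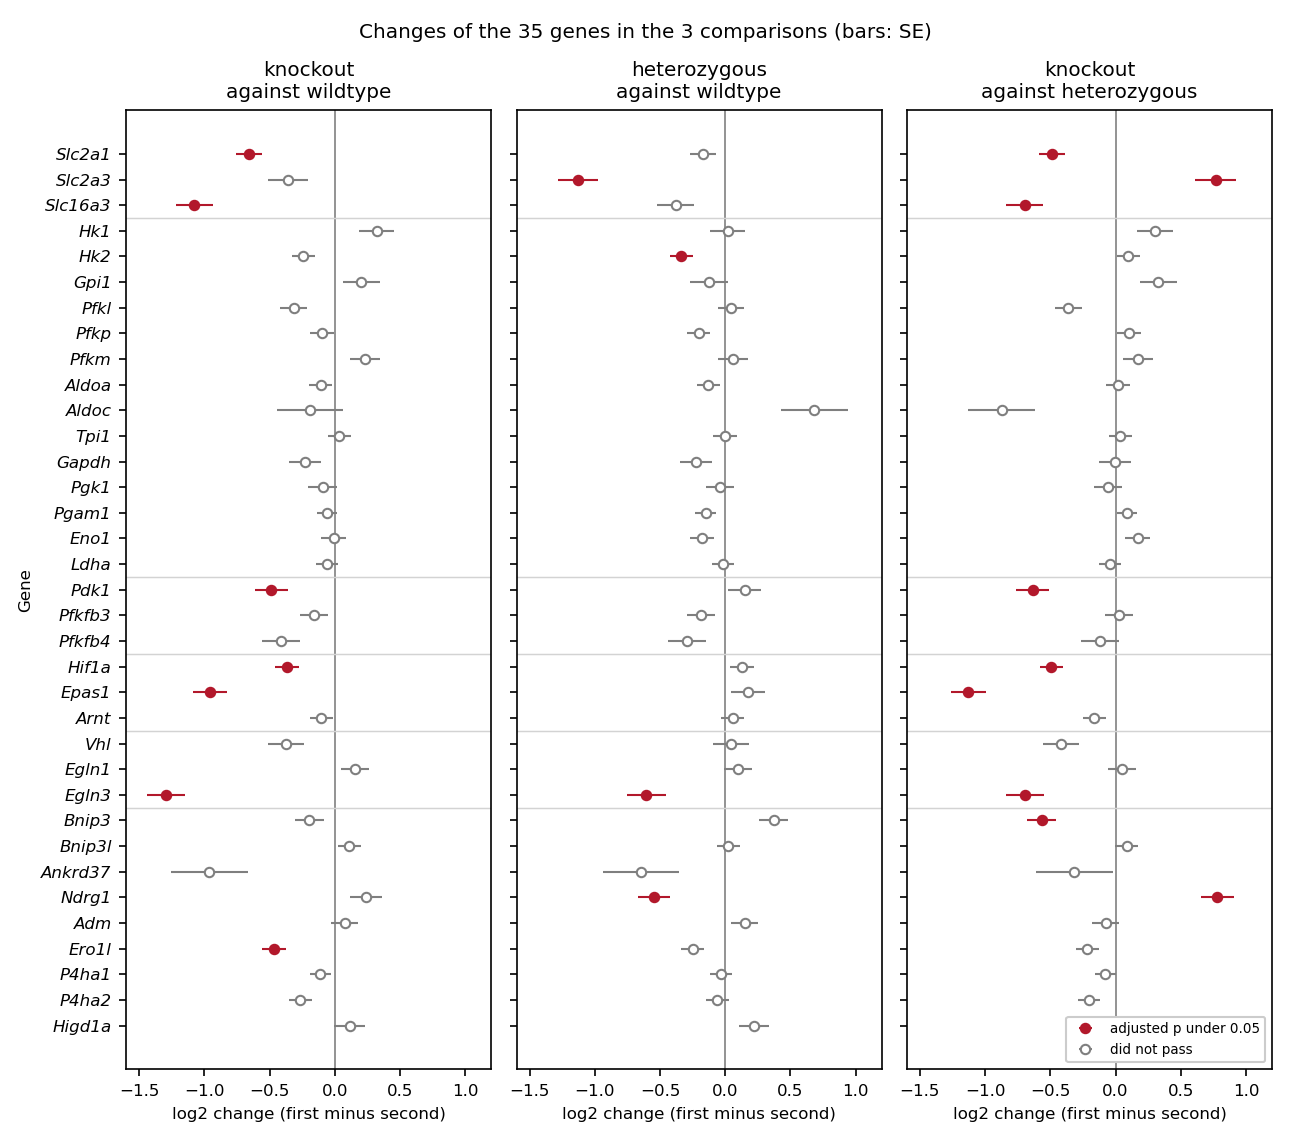
Log2 changes with their standard errors for the 35 genes in the 3 comparisons, first group minus second, with filled red points where the adjusted p was under 0.05 and grey lines between the functional groups. Red points lie to the left of 0 except for Slc2a3 and Ndrg1 in knockout against heterozygous, and the 14 enzymes from Hk1 to Ldha hold 1 red point, Hk2 in heterozygous against wildtype.

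Further genes of the same pathways were read out from 4 other lists, also chosen with earlier results of these data known. A share above that of all tested genes may thus reflect the choice of genes, which was not tested. Of 35 other hypoxia-induced genes tested, 7 fell and 1 rose in knockout against wildtype, 5 fell and 2 rose in heterozygous against wildtype, and 6 fell and 1 rose in knockout against heterozygous, with median log2 changes of -0.15 in knockout against wildtype, -0.0035 in heterozygous against wildtype and -0.16 in knockout against heterozygous. The share that fell was 20% in knockout against wildtype, 14.3% in heterozygous against wildtype and 17.1% in knockout against heterozygous, beside 7.10%, 2.74% and 8.09% of all tested genes, and the share that rose was 2.86%, 5.71% and 2.86%, beside 5.42%, 5.33% and 4.39%. Vegfa, the endothelial growth factor, Loxl2, a collagen crosslinking oxidase, and Stc1, a secreted glycoprotein, fell in all 3 comparisons. In knockout against wildtype the changes were -1.49 ± 0.09 for Vegfa, -2.16 ± 0.08 for Loxl2 and -2.00 ± 0.17 for Stc1, and those calls held under all 16 alternatives. The changes in heterozygous against wildtype were -0.81 for Vegfa, -1.54 for Loxl2 and -1.31 for Stc1, and those calls held too. The changes in knockout against heterozygous were -0.67 for Vegfa and -0.63 for Loxl2, which held, and -0.68 for Stc1 (adjusted p = 0.0329, range 0.00517 to 0.267), which was lost under 8 of 16 alternatives, among them without any 1 of the heterozygous or wildtype libraries. Angptl4, a lipase inhibitor, fell by 1.28 ± 0.12 in knockout against wildtype (adjusted p = 0.000174) with its call kept under all alternatives. Its changes of -0.77 in heterozygous against wildtype (adjusted p = 0.00472, range 9.74e-07 to 0.0985) and -0.52 in knockout against heterozygous (adjusted p = 0.0235, range 0.00232 to 0.178) passed but were lost without heterozygous replicate 1 or 2 or wildtype replicate 1, and the second also without wildtype replicate 2, in the fit of the 2 groups alone and by DESeq2.

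Most of the other calls among the hypoxia-induced genes were lost when 1 library was left out. In knockout against wildtype Stc2 (-1.23), Wsb1 (-0.63) and Ak4 (-0.51) fell and Car12, a carbonic anhydrase gene, rose (0.99). All 4 calls were lost without wildtype replicate 1 or 2, with adjusted p of up to 0.132 for Stc2, 0.177 for Wsb1, 0.208 for Ak4 and 0.166 for Car12. Those of Wsb1 and Ak4 were also lost without either heterozygous library and in the fit of the 2 groups alone, that of Wsb1 with no mean trend, and those of Ak4 and Car12 by DESeq2. Edn1, the gene of the vasoconstrictor endothelin, rose by 0.55 ± 0.13 and Hmox1, heme oxygenase, by 0.34 ± 0.09 in heterozygous against wildtype, and Bhlhe40, a transcriptional repressor gene, fell by 0.39 ± 0.10. These 3 calls were lost without any 1 of the heterozygous or wildtype libraries and with no mean trend, with adjusted p of up to 0.299 for Edn1, 0.432 for Hmox1 and 0.387 for Bhlhe40, and those of Hmox1 and Bhlhe40 with no filter. In knockout against heterozygous Car12 rose (1.47) with its call kept under all alternatives, and Stc2 (-1.09) and Hmox1 (-0.38) fell. Both falls were lost without any 1 of the heterozygous or wildtype libraries, with no mean trend and in the fit of the 2 groups alone, with adjusted p of up to 0.241 for Stc2 and 0.222 for Hmox1, and that of Stc2 also by quantile normalization and DESeq2.

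Of 29 other genes of glycolysis and pyruvate use, 1 rose and 2 fell in knockout against wildtype, 3 rose and 0 fell in heterozygous against wildtype (0 lower by edgeR and DESeq2 and at an unadjusted p under 0.05), and 0 rose and 3 fell in knockout against heterozygous (0 higher by edgeR and DESeq2, 5 at an unadjusted p under 0.05). In knockout against wildtype the shares of 3.45% higher and 6.90% lower were near the 5.42% and 7.10% of all tested genes, and in the other comparisons 10.3% rose (heterozygous against wildtype, beside 5.33%) and 10.3% fell (knockout against heterozygous, beside 8.09%). The median log2 changes were 0.09 in knockout against wildtype, 0.03 in heterozygous against wildtype and 0.07 in knockout against heterozygous. Pdp1, the phosphatase that reopens pyruvate dehydrogenase and so opposes Pdk1, rose by 1.01 ± 0.12 in knockout against wildtype (adjusted p = 0.000568, at most 0.0154 over the alternatives), with 432 and 423 scaled counts in the knockout libraries, 374 and 339 in heterozygous libraries, and 207 and 217 in wildtype libraries. It rose by 0.75 ± 0.12 in heterozygous against wildtype (adjusted p = 0.00467, range 4.18e-06 to 0.0968), lost without any 1 of the heterozygous or wildtype libraries. Hk3 fell as described, and the neuronal enolase Eno2 fell by 0.48 ± 0.11 in knockout against wildtype (adjusted p = 0.0218, range 0.000691 to 0.177), lost without any 1 of the heterozygous or wildtype libraries and in the fit of the 2 groups alone. Eno2 also fell by 0.43 ± 0.11 in knockout against heterozygous (adjusted p = 0.0352, range 0.00172 to 0.23), lost under 8 of 16 alternatives, again without any 1 of those libraries. Pygl, liver glycogen phosphorylase, rose by 0.65 ± 0.16 in heterozygous against wildtype (adjusted p = 0.0399, range 0.000348 to 0.329), lost under 8 of 16 alternatives, among them without any 1 of the heterozygous or wildtype libraries. Pygl fell by 0.93 ± 0.16 in knockout against heterozygous (adjusted p = 0.00479, range 1.18e-05 to 0.0802), lost without heterozygous replicate 1 or 2, and Hk3 fell by 2.72 ± 0.15 there, a call kept under all alternatives. Pkm2, the symbol under which the table lists pyruvate kinase of muscle, averaged 41820 ± 6508 in knockout, 34209 ± 1799 in heterozygous and 36294 ± 2412 in wildtype (SD, n = 2) and did not pass.

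Of 16 other HIF pathway regulators, Arnt2 alone rose and 0 fell in knockout against wildtype, with 0 lower at an unadjusted p under 0.05 or by edgeR or DESeq2. It rose in heterozygous against wildtype as well, by 0.59 ± 0.10 (adjusted p = 0.00533, range 2.13e-06 to 0.0956), a call lost without any 1 of the heterozygous or wildtype libraries. In that comparison 0 fell by limma or DESeq2 and 1 by edgeR, with 1 lower at an unadjusted p under 0.05. The share that rose there was 6.25%, near the 5.33% of all tested genes. In knockout against heterozygous 0 of the 16 passed by limma, edgeR or DESeq2, with 2 higher and 0 lower at an unadjusted p under 0.05. Their median log2 changes were 0.06 in knockout against wildtype, -0.03 in heterozygous against wildtype and 0.12 in knockout against heterozygous. Of 15 other prolyl hydroxylase and collagen modifying genes, P4ha3 rose, and Serpinh1, a collagen chaperone gene, fell in knockout against wildtype. Serpinh1 fell by 0.51 ± 0.09 (adjusted p = 0.00386, range 6.37e-06 to 0.0761, the highest without wildtype replicate 1). In heterozygous against wildtype 0 of these 15 passed by limma, edgeR or DESeq2, with 2 higher and 2 lower at an unadjusted p under 0.05. In knockout against heterozygous P4ha3 and Leprel1 rose and 0 fell, with 4 lower at an unadjusted p under 0.05 and 0 lower by edgeR or DESeq2. The share that rose there was 13.3%, beside 4.39% of all tested genes, of which 8.09% fell. The change was 0.56 for P4ha3 (adjusted p = 0.0368, range 2.46e-08 to 0.253) and 0.67 for Leprel1, a collagen prolyl 3-hydroxylase gene (adjusted p = 0.0281, range 0.0024 to 0.223), and both calls were lost without any 1 of the heterozygous or wildtype libraries and in the fit of the 2 groups alone, that of P4ha3 also with no mean trend and that of Leprel1 also with no filter and by DESeq2. The shares that rose were 6.25% of the 16 regulators and 6.67% of the 15 collagen modifying genes in knockout against wildtype, near the 5.42% of all tested genes, and the share of the 15 that fell was 6.67%, near 7.10%. The median log2 changes of these 15 were -0.07 in knockout against wildtype, 0.01 in heterozygous against wildtype and -0.07 in knockout against heterozygous.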

How the data were processed

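RNA was sequenced in 6 libraries, 2 per genotype, grouped by their titles. Per the labels' protocols, total RNA was made into libraries with the TruSeq RNA kit. The submitters' processing notes name the mouse build mm9 and 3 tools, DESeq 1.16.0, TopHat2 2.0.4 and HTSeq 0.5.4p3, without their roles; strand and annotation release are not given in the sources used here. The deposited values are a signal per gene, read counts divided by 1 size factor per library, and every value came out as a whole read once that factor was recovered. The depth of 17323962 to 28123670 reads in genes per library sets the counting error, which intervals here do not separate from other spread.

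From these, log2(value + 1) was fitted with limma 3.58.1 in R 4.3.3, with all 6 libraries in 1 fit, a mean trend, 3 residual and 6.17 prior degrees of freedom, and no replicate block. A gene needed a value of 10 in at least 2 libraries, which left 15781 genes, and p-values were adjusted over all of them by Benjamini-Hochberg with a threshold of 0.05. Fold changes are on the log2(value + 1) scale, which understates those of low genes. The 16 alternatives included edgeR 4.0.16 and DESeq2 1.42.0 on the recovered reads, other scalings, pseudocounts and filters, and leaving out each library. The fit was tested on simulated data with the same spread setting for all genes and libraries. That test does not cover the larger spread between the knockout libraries. The members and gene lists were chosen with earlier results of these data known. Values per library are given for members that passed in any comparison and for Hif1a, Epas1, Arnt, Vhl, Slc2a1, Gapdh, Pgk1 and Ldha; genes of the other pathway lists are named where they passed, up to 8 per list and comparison. Slc16a1, Pkm2, Gpi1, Aldoc and the isoforms of a family were chosen after their values were seen. Promoters come from RefSeq on GRCm38.p6, at the most upstream listed start of each gene, where 31 of 35 members matched.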

Additional observations from a re-analysis of the deposited data

How the results depend on the processing

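Over 16 alternatives to each of 105 results of the 35 genes, 1550 of 1680 values kept their direction and side of the threshold, 52 calls were lost, 43 were gained and 35 values changed sign, of which 0 had an adjusted p under 0.05. Of 20 calls, 5 held under all 16 and 11 under all that kept every library. The cause of these changes was not tested. With no mean trend, members lower numbered 4 in knockout against wildtype and 1 in heterozygous against wildtype, with 1 higher, while all genes lower in heterozygous against wildtype numbered 269 and higher in knockout against heterozygous 441. With only the 2 groups compared, heterozygous against wildtype had 1 member higher and 7 lower and 1764 genes higher and 1268 lower, and knockout against heterozygous 400 genes higher. Members lower in heterozygous against wildtype numbered 2 with no filter and 2 by DESeq2. Leaving out 1 library leaves its group with a single library, assumed to vary like the others. Members higher then numbered 0 to 3 in knockout against wildtype, 0 to 1 in heterozygous against wildtype and 0 to 5 in knockout against heterozygous, and members lower 3 to 14, 1 to 7 and 2 to 11. All genes higher numbered 353 to 2783, 215 to 1757 and 174 to 2747, and lower 501 to 2830, 98 to 1256 and 643 to 2926. Small log2 differences changed sign under other scalings or tools. In heterozygous against wildtype these were Tpi1 (0.030 by quantile normalization, 0.00089 by DESeq2), Ldha (0.0071), P4ha1 (0.0036) and Vhl (-0.0018) by quantile normalization. Eno1 in knockout against wildtype was 0.032 by quantile normalization, and Gapdh in knockout against heterozygous was 0.0035 by TMM, 0.063 by quantile normalization, 0.0068 by edgeR and 0.00049 by DESeq2. Leaving out 1 library gave ranges across 0 in knockout against wildtype for Eno1 (-0.075 to 0.059), Gpi1 (-0.034 to 0.44) and Pgk1 (-0.25 to 0.063). The same held in heterozygous against wildtype for Bnip3l (-0.0078 to 0.055), Egln1 (-0.019 to 0.22), Hk1 (-0.054 to 0.092), Ldha (-0.073 to 0.033), Pfkl (-0.042 to 0.13) and Tpi1 (-0.093 to 0.090). It also held in knockout against heterozygous for Aldoa (-0.047 to 0.087), Ankrd37 (-0.67 to 0.035), Gapdh (-0.099 to 0.094), Ldha (-0.093 to 0.013), Pfkfb3 (-0.050 to 0.10), Pfkfb4 (-0.27 to 0.030), Pgk1 (-0.21 to 0.10) and Tpi1 (-0.054 to 0.13). Libraries of different genotypes share only a replicate number, whose deviations correlated at 0.199 between knockout and wildtype, 0.168 between heterozygous and wildtype and 0.139 between knockout and heterozygous. With the replicate block, members lower numbered 8 in knockout against wildtype, 5 in heterozygous against wildtype and 8 in knockout against heterozygous, with 0, 0 and 3 higher.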
